A study of Gallus gallus with 12 samples.

Results

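The cadherins described here are CDH1, CDH2, CDH4, CDH6, CDH7, CDH8, CDH10, CDH11 and CDH13, 9 genes picked by symbol from the 17485 protein coding genes of the chicken embryo dataset. All 9 were found and all 9 passed the filter on low counts, which left 16603 of 24121 genes for testing. RNA was sequenced from pooled tissues of Hy-Line Brown chicken embryos, not separated by sex, with 3 libraries for each of 4 tissues and no genetic or drug treatment. E4.5-Ant was the anterior part of the urogenital system at E4.5, which holds mesonephros, mesentery and the Müllerian ridge where the duct begins. E4.5-Post was the remaining posterior part of the same urogenital systems, mesonephros and mesentery without the ridge, and served as the negative control. E5.5 duct and E6.5 duct were Müllerian ducts dissected from the mesonephros, each with its surface epithelium, duct mesenchyme and Müllerian epithelium. The ducts therefore differ from both E4.5 tissues in age as well as in tissue, and these differences cannot be told apart.

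Cadherins are calcium-dependent adhesion molecules of the cell surface that bind their like on the neighbouring cell. Their cytoplasmic tails hold beta-catenin and p120 catenin, which tie the adherens junction to actin. CDH1, CDH2 and CDH4 are type I and CDH6, CDH7, CDH8, CDH10 and CDH11 type II cadherins, while CDH13 (T-cadherin) is held in the membrane by a lipid anchor and lacks the catenin-binding tail, so it is not a classical cadherin in the strict sense. In embryos CDH1 is typical of epithelia, CDH11 of mesenchyme, and CDH2 of neural, mesodermal and mesothelial cells. The Müllerian duct begins as an invagination of the coelomic epithelium and elongates within mesenchyme, so both kinds of cells are in the tissue.

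Between 24235353 and 31373783 counts fell on genes per library. One E4.5-Ant library, number 2, had 42.12% of its counts on rRNA genes, against 0.199% to 1.95% in the other 11, and was left out of the tests. The study also left out one E4.5-Ant sample, which it does not name by number. The values of the omitted library are printed beside the others and its effect on each result is given where it changed a call. E5.5 duct library 2 also differed from its replicates beyond their usual spread: the chi-square per degree of freedom over genes was 29.1 and 35.6 for pairs with it and 9.13 for the other pair. For 1 of the E5.5 duct samples, the cell type label reads posterior kidney although its title and tissue label give the duct, and which of the 3 columns it is could not be settled. Counts cover whole genes with introns, so levels are compared between tissues for 1 gene and not between genes. Gene coordinates are those of GRCg6a, and no member overlaps another gene on its own strand. Levels are counts per 1000000 counts after TMM scaling (CPM), and in bulk tissue fewer cells of a type and less RNA per cell cannot be told apart. A gene was called when its edgeR FDR was at most 0.05 and its change was at least about 1.5-fold on the log2 scale. The lowest count of a member in a tested library was 114, for CDH8, and the highest 19923, for CDH11.

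Among the 4 tissues, 7 of the 9 cadherins differed by the F test over all tissues, against 34.7% of all genes tested. CDH1 and CDH7 had an FDR under the limit (0.00021 and 3e-04) but a log2 range of 0.41 and 0.55, below the fold limit. With the omitted library in the fit 8 of 9 differed, as CDH1 then passed the fold limit. The share of all genes was not computed for that fit. The largest F were those of CDH2 at 107, CDH11 at 76.1, CDH10 at 50.4 and CDH6 at 46.6. The tissue with the highest mean differed from gene to gene: E6.5 duct for CDH2, CDH4 and CDH6, E5.5 duct for CDH7 and CDH8, and E4.5-Ant for CDH10, CDH11 and CDH13. For CDH1 it was E4.5-Post, whose mean of 200.5 CPM stood beside 198 in E6.5 duct, with libraries that overlapped. The highest and next tissue also overlapped for CDH4 and CDH6 (E5.5 duct next), CDH7 (E4.5-Post next) and CDH13 (E6.5 duct next). None of these differences was called. For CDH11 the next tissue was E5.5 duct, which did not overlap with E4.5-Ant, but the difference was not called.

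**Figure D1:**
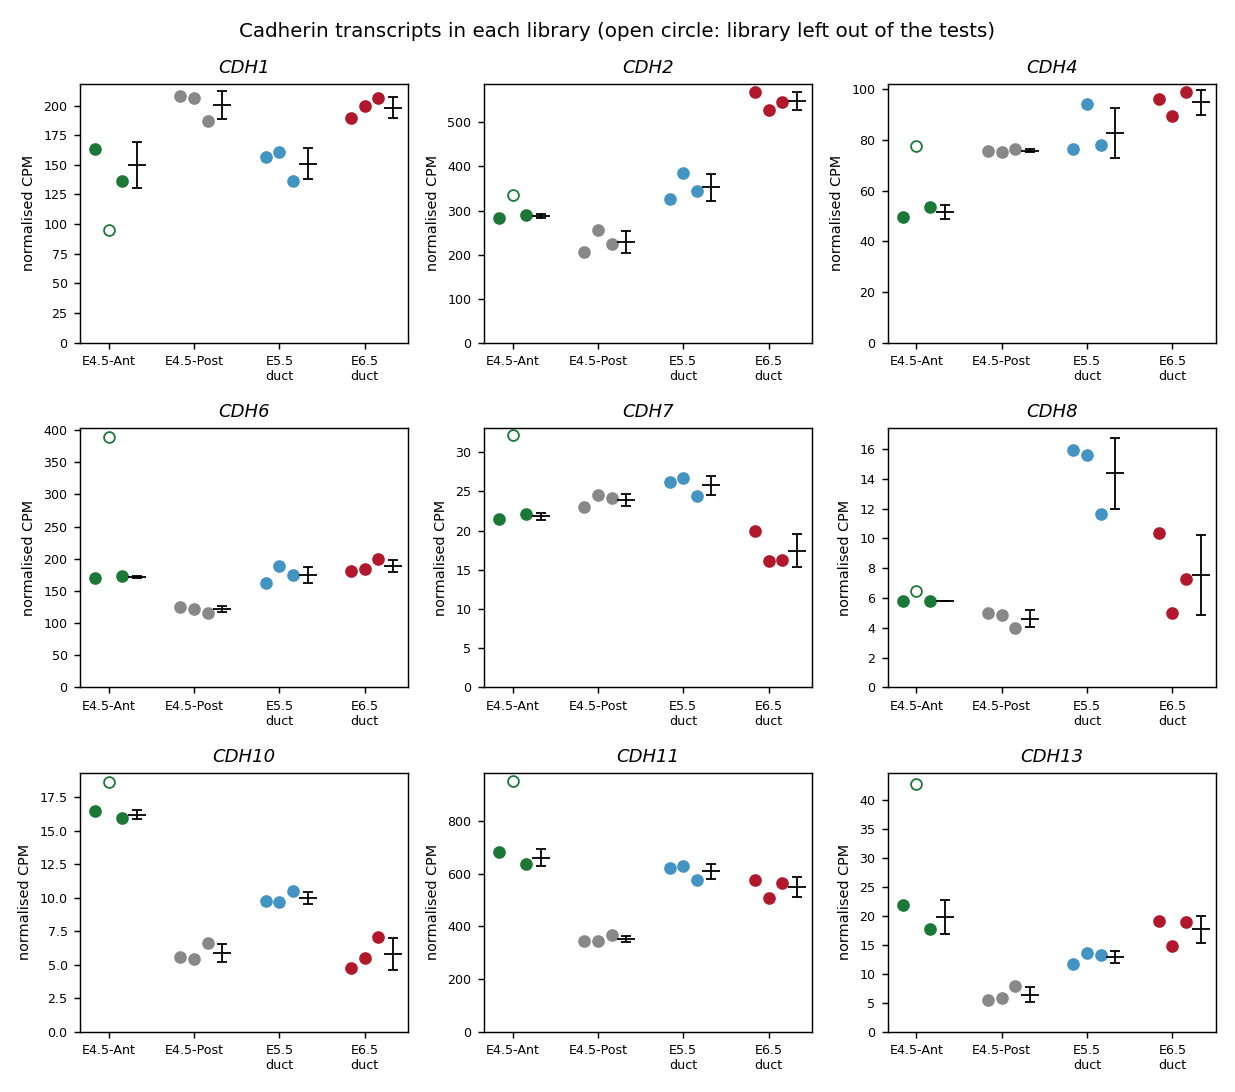
Normalised CPM of the 9 cadherins in each library of the 4 tissues, on a separate axis from 0 for each gene. Filled circles are libraries in the tests, the open circle is E4.5-Ant library 2, and the black marks give the mean and SD of the filled circles; CDH2 is highest in the 3 E6.5 duct libraries, from 529 to 569.7, and CDH11 lowest in the 3 E4.5-Post libraries, from 345 to 368.

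CDH1, E-cadherin, spans 8770 bases on chromosome 11 from 18870441 to 18879210 on the plus strand. Its level was 163 and 136 CPM in E4.5-Ant libraries 1 and 3, and 208, 206 and 187 CPM in the E4.5-Post libraries. It was 156, 161 and 136 CPM in E5.5 duct and 189, 199.5 and 206 CPM in E6.5 duct. All libraries of E4.5-Ant and E5.5 duct lay below all libraries of E4.5-Post and E6.5 duct. The log2FC was -0.41 (SE 0.0855, FDR 0.00269) for E4.5-Ant and -0.39 (SE 0.0756, FDR 0.000552) for E5.5 duct against E4.5-Post, and 0.40 (SE 0.0757, FDR 0.00165) for E6.5 duct against E5.5 duct, none past the fold limit. Between E6.5 duct and E4.5-Post the log2FC was 0.01 with a 95% interval from -0.15 to 0.17. The omitted E4.5-Ant library had 95.3 CPM, and with it in the fit the E4.5-Ant difference from E4.5-Post was called, with a log2FC of -0.60 and an FDR of 0.00835, as was E6.5 duct against E4.5-Ant, with 0.59 and an FDR of 0.00648.

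The gene CDH3, named for P-cadherin of epithelia, ends 558 bases before CDH1 begins, on the same strand. Its reads stood to those of CDH1 in a ratio of 0.67 ± 0.0446 (SD, n = 2) in E4.5-Ant, 0.82 ± 0.0608 (SD, n = 3) in E4.5-Post, 0.78 ± 0.0419 (SD, n = 3) in E5.5 duct and 0.90 ± 0.0425 (SD, n = 3) in E6.5 duct. The order of the tissues in CDH3 was close to that in CDH1, with means of 99.4, 164, 118 and 178 CPM. Unlike CDH1, CDH3 passed both limits in E4.5-Ant against E4.5-Post, with a log2FC of -0.71 (SE 0.0647). It also did in E6.5 duct against E4.5-Ant, with 0.85 (SE 0.0649, FDR 1.56e-07), where CDH1 had 0.41, under the fold limit. In E6.5 duct against E5.5 duct CDH3 was called with 0.61 (SE 0.0565), but was 0.58 and under the fold limit without E5.5 duct library 3. The difference between the 2 genes was not tested.

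CDH2, N-cadherin, lies on chromosome 2 from 104786665 to 104900468 on the minus strand. Its level was 284 and 291 CPM in E4.5-Ant and 207, 255 and 224 CPM in E4.5-Post. It was 327, 386 and 344 CPM in E5.5 duct and 569.7, 529 and 546 CPM in E6.5 duct. Among the tested libraries, none of one tissue overlapped those of another, in the order E4.5-Post, E4.5-Ant, E5.5 duct, E6.5 duct. CDH2 rose from E5.5 to E6.5 duct with a log2FC of 0.65 (SE 0.0748, FDR 5.78e-05), and E6.5 duct stood 2.44-fold above E4.5-Post (log2FC 1.29, SE 0.076, FDR 5.2e-09). E4.5-Ant was above E4.5-Post by a log2FC of 0.34 (SE 0.0835, FDR 0.0068), under the fold limit. The E5.5 duct call against E4.5-Post, with a log2FC of 0.64, lay close to that limit: it was 0.57 without E4.5-Post library 1 and 0.57 without E5.5 duct library 2. The omitted E4.5-Ant library had 335 CPM, inside the E5.5 duct range.

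CDH4, R-cadherin, known from the retina and from kidney epithelium, spans 414636 bases on chromosome 20 from 7236143 to 7650778 on the plus strand. Its level was 49.8 and 53.5 CPM in E4.5-Ant, 75.6, 75.3 and 76.4 CPM in E4.5-Post, 76.35, 94.15 and 78.1 CPM in E5.5 duct and 96.2, 89.5 and 99 CPM in E6.5 duct. The E4.5-Ant libraries in the tests were the lowest of all. CDH4 was higher in E6.5 duct than in E4.5-Ant by a log2FC of 0.89 (SE 0.0828, FDR 1.05e-06) and in E5.5 duct by 0.68 (SE 0.0825, FDR 2.34e-05). The omitted E4.5-Ant library had 77.7 CPM, inside the E5.5 duct range, and with it the E5.5 duct difference was 0.46 and no longer called. Without E5.5 duct library 2 it was 0.5842, just under the limit. For E4.5-Ant against the posterior control it was -0.54 (SE 0.0825, FDR 0.000235), under the fold limit, and -0.59 without E4.5-Ant library 3, which is past it.

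CDH6, K-cadherin, known from kidney tubules, lies on chromosome 2 from 69260856 to 69363887 on the minus strand. Its level was 171 and 173 CPM in E4.5-Ant, 125, 122 and 116 CPM in E4.5-Post, 162, 188 and 174 CPM in E5.5 duct and 181, 185 and 199 CPM in E6.5 duct. The E4.5-Post libraries were below every library of the other tissues. E6.5 duct passed the fold limit against E4.5-Post (log2FC 0.66, SE 0.059, FDR 3.45e-07), while E5.5 duct with 0.54 (SE 0.0589) and E4.5-Ant with 0.52 (SE 0.0652) did not. The differences among E4.5-Ant, E5.5 duct and E6.5 duct were 0.02 to 0.14 in log2FC and none was called. The omitted library had 389 CPM, above every other library, and with it E4.5-Ant against E4.5-Post was called, with a log2FC of 1.01 and an FDR of 0.0087.

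CDH7, a type II cadherin known in chicken from migrating neural crest and from neural tissue, lies on chromosome 2 from 95468521 to 95545982 on the minus strand. Its level was 21.5 and 22.15 CPM in E4.5-Ant, 23, 24.5 and 24.1 CPM in E4.5-Post, 26.2, 26.7 and 24.4 CPM in E5.5 duct and 19.9, 16.15 and 16.3 CPM in E6.5 duct. The E6.5 duct libraries were the lowest. No comparison passed both limits; the closest was E6.5 against E5.5 duct, with a log2FC of -0.55 (SE 0.0834, FDR 0.000362). It was past the fold limit at -0.59 without E5.5 duct library 3 and at -0.66 without E6.5 duct library 1. The omitted library had 32.2 CPM.

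CDH8, a type II cadherin known from the brain, lies on chromosome 11 from 12823945 to 12973998 on the plus strand. Its level was 5.8 and 5.79 CPM in E4.5-Ant, 5.02, 4.83 and 3.99 CPM in E4.5-Post, 15.9, 15.6 and 11.6 CPM in E5.5 duct and 10.35, 5.01 and 7.28 CPM in E6.5 duct. Every E5.5 duct library was above every library of the other tissues, while E6.5 duct library 2 fell within the E4.5-Post range. CDH8 was 3.15-fold higher in E5.5 duct than in E4.5-Post (log2FC 1.66, SE 0.208, FDR 1.3e-05) and 2.49-fold higher than in E4.5-Ant, and fell by 0.92 (SE 0.198, FDR 0.00388) on the log2 scale from E5.5 to E6.5 duct. E6.5 duct against E4.5-Post was called with a log2FC of 0.74 (SE 0.215, FDR 0.00882), but without E6.5 duct library 1 it was 0.44 with an FDR of 0.0656. Against E4.5-Ant it was 0.40 and not called, and 0.62 and called without E6.5 duct library 2. The omitted library had 6.47 CPM.

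CDH10, a type II cadherin known from brain and its blood vessels, lies on chromosome 2 from 72100913 to 72196559 on the plus strand. Its level was 16.4 and 16 CPM in E4.5-Ant, 5.54, 5.44 and 6.65 CPM in E4.5-Post, 9.78, 9.71 and 10.5 CPM in E5.5 duct and 4.74, 5.49 and 7.08 CPM in E6.5 duct. E4.5-Ant and E5.5 duct overlapped with no other tissue, while E4.5-Post and E6.5 duct overlapped. CDH10 was 2.78-fold higher in E4.5-Ant relative to E4.5-Post (log2FC 1.48, 95% interval 1.17 to 1.78, FDR 3.71e-06) and lower by log2FC -0.69 (SE 0.139) in E5.5 duct than in E4.5-Ant and by -0.79 (SE 0.135) in E6.5 than in E5.5 duct. Between E6.5 duct and E4.5-Post the log2FC was -0.01 with a 95% interval from -0.31 to 0.29. The omitted library had 18.6 CPM, above the other E4.5-Ant libraries.

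CDH11, OB-cadherin, a mesenchymal type II cadherin, lies on chromosome 11 from 12119373 to 12198657 on the plus strand. Its level was 684 and 637.5 CPM in E4.5-Ant, 345, 345 and 368 CPM in E4.5-Post, 622, 629 and 577 CPM in E5.5 duct and 576, 506.5 and 564 CPM in E6.5 duct. All E4.5-Post libraries were below all others. The log2FC against E4.5-Post was 0.92 (SE 0.0682, FDR 2.63e-07) for E4.5-Ant, 0.80 (SE 0.0622, FDR 1.37e-07) for E5.5 duct and 0.66 (SE 0.0621, FDR 5.53e-07) for E6.5 duct. These comparisons share the E4.5-Post libraries. The differences among the other tissues were -0.12 to -0.26 and none passed the fold limit. The omitted library had 954 CPM.

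CDH13, T-cadherin, spans 432696 bases on chromosome 11 from 15966410 to 16399105 on the plus strand. It is known from endothelial and smooth muscle cells and from guidance of motor axons in chicken. Its level was 21.9 and 17.7 CPM in E4.5-Ant, 5.54, 5.91 and 7.84 CPM in E4.5-Post, 11.7, 13.7 and 13.2 CPM in E5.5 duct and 19.2, 14.9 and 18.9 CPM in E6.5 duct. The E4.5-Post libraries were the lowest, and the E5.5 duct libraries lay between them and the other tissues. CDH13 was 3.11-fold higher in E4.5-Ant (log2FC 1.64, SE 0.156, FDR 3.01e-06), 2.02-fold higher in E5.5 duct and 2.79-fold higher in E6.5 duct (log2FC 1.48, SE 0.144) than in E4.5-Post. E5.5 duct was lower than E4.5-Ant by log2FC -0.62 (SE 0.149, FDR 0.00558); without E4.5-Ant library 1 this was -0.46 with an FDR of 0.112, and with the omitted library, at 42.9 CPM, it was -1.08. The summed level of 6 endothelial markers was 829 to 927 CPM in E4.5-Ant, 702 to 765 in E4.5-Post, 649.7 to 707 in E5.5 duct and 589 to 625 in E6.5 duct. By gene, none of the 6 was called in E4.5-Ant against the posterior control, while in each duct PECAM1 was called higher (log2FC 0.72 at E5.5 and 0.68 at E6.5) and KDR lower (-0.73 and -0.87). The part of endothelial cells in the CDH13 result was not tested.

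**Figure D2:**
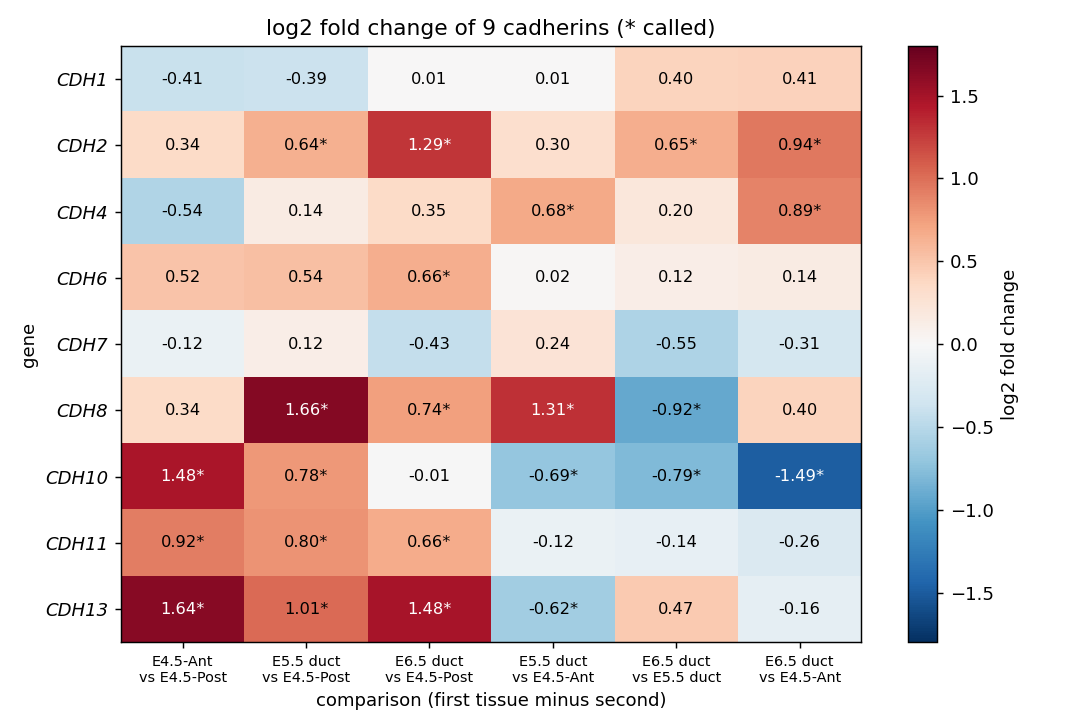
Log2 fold change of each cadherin (rows) in the 6 comparisons (columns), first tissue minus second, with red higher and blue lower in the first; an asterisk marks a call at both limits. In the 3 columns against E4.5-Post no cadherin was called lower, and CDH8, CDH10 and CDH13 have calls of both signs.

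Of the comparisons with the negative control, E4.5-Ant had 3 of 9 cadherins called, all higher, against 10.8% of all genes called, 7.7% higher and 3.05% lower. E5.5 duct had 5 of 9 higher, against 20.6% of all genes called, 14.3% higher and 6.26% lower. E6.5 duct had 5 of 9 higher, against 25.3% of all genes called, 16.5% higher and 8.78% lower. The called genes were CDH10, CDH11 and CDH13 in E4.5-Ant, CDH2, CDH8, CDH10, CDH11 and CDH13 in E5.5 duct, and CDH2, CDH6, CDH8, CDH11 and CDH13 in E6.5 duct. The median log2FC of the 9 members was 0.34, 0.64 and 0.66, beside medians of -0.02, 0.01 and 0.01 over all genes. With the omitted library in the fit, 5 of 9 were called in E4.5-Ant, 4 higher and CDH1 lower.

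Between successive stages the cadherins moved in both directions. In E5.5 duct relative to E4.5-Ant CDH4 and CDH8 were higher and CDH10 and CDH13 lower, 4 of 9 called against 13% of all genes, 7.8% higher and 5.22% lower. From E5.5 to E6.5 duct CDH2 rose and CDH8 and CDH10 fell, 3 of 9 called against 7.56% of all genes, 4.11% higher and 3.45% lower. In E6.5 duct relative to E4.5-Ant CDH2 and CDH4 were higher and CDH10 lower, 3 of 9 called against 19.7% of all genes, 11.5% higher and 8.26% lower. The first 2 of these share the E5.5 duct libraries, so a gene high at E5.5, such as CDH8, was called with opposite signs in both. The libraries did not overlap for 9, 7 and 6 of the members in E4.5-Ant, E5.5 duct and E6.5 duct against E4.5-Post, where 59.6%, 60.6% and 64.9% of all genes did not. They did not overlap for 7 members in each of the other comparisons, against 55.3% of all genes in the E5.5 case and 65.6% in the E6.5 case, both ducts set against E4.5-Ant, and 40.5% for the ducts set against each other.

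A ratio of 2 genes within a library does not depend on the scaling between libraries. CDH2 reads per CDH1 read were 1.74 and 2.135 in E4.5-Ant, 0.994, 1.235 and 1.198 in E4.5-Post, 2.096, 2.397 and 2.525 in E5.5 duct and 3.01, 2.65 and 2.65 in E6.5 duct. The tissues other than E4.5-Ant and E5.5 duct did not overlap with any other, and those 2 overlapped at 2.096 and 2.135. CDH11 reads per CDH1 read were 4.19 and 4.68 in E4.5-Ant, 1.66, 1.67 and 1.97 in E4.5-Post, 3.985, 3.91 and 4.23 in E5.5 duct and 3.05, 2.54 and 2.73 in E6.5 duct. The ratio with CDH11 was thus lower in E6.5 than in E5.5 duct while the ratio with CDH2 was higher. In the omitted library the ratios were 3.51 and 10, above all others. The ratio of CDH11 to CDH2 was 2.3 ± 0.155 (SD, n = 2) in E4.5-Ant, 1.555 ± 0.176 (SD, n = 3) in E4.5-Post, 1.74 ± 0.145 (SD, n = 3) in E5.5 duct and 1 ± 0.0387 (SD, n = 3) in E6.5 duct.

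**Figure D3:**
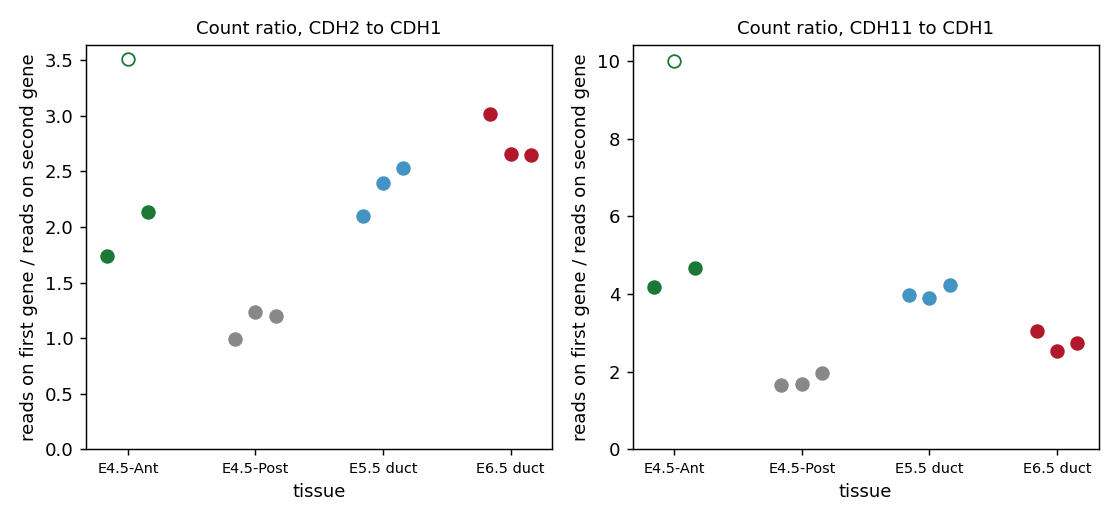
Reads on CDH2 (left) and on CDH11 (right) per read on CDH1 in each library, by tissue, on axes from 0; the open circle is the omitted E4.5-Ant library. E4.5-Post is lowest in both panels, E6.5 duct is the highest tissue of the tests for CDH2, and for CDH11 E6.5 duct lies between E4.5-Post and the other tissues.

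Beta-catenin and p120 catenin bind the tails of these cadherins, CDH13 excepted. Of 9 catenin and p120 family genes tested, none was called in E4.5-Ant against E4.5-Post, while 1 was higher in each duct, and the median log2FC was -0.02, 0.07 and 0.09. At E5.5 it was CTNNA2, the neural alpha-catenin (log2FC 0.67, with 0.5775 and an FDR of 7.94e-06 at E6.5, just under the fold limit). At E6.5 it was JUP, plakoglobin, at 243 against 165 CPM, and its log2FC of 0.59 was at the limit, with 0.58 under DESeq2 size factors and 0.56 with all 12 libraries, both under it. Nectins are immunoglobulin-like molecules that join the adherens junction beside cadherins. Of 9 nectins and actin linkers, 2 were higher and none lower in E4.5-Ant against E4.5-Post, ACTN1, an alpha-actinin (log2FC 1.08), and PTPRM, a receptor phosphatase (0.61). In E6.5 duct none was higher and 2 were lower, NECTIN1 (log2FC -0.71) and NECTIN3 (-0.95). The same 2 were lower and none higher in E5.5 duct, with -0.59 and -0.63. There NECTIN1 was -0.51 without E4.5-Post library 2 and NECTIN3 -0.58 without E5.5 duct library 1, neither past the fold limit. Of 5 tested genes of cadherin shedding and turnover, 1 was higher in each of the comparisons with E4.5-Post, MMP2, a matrix metalloproteinase, with log2FC 0.82, 0.87 and 0.63. For all these lists, the shares over all genes were 7.7%, 14.3% and 16.5% higher and 3.05%, 6.26% and 8.78% lower in the same comparisons.

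Desmosomes are the other cadherin junction of epithelia, and 6 of their genes were tested. In E4.5-Ant 4 of 6 were lower than in E4.5-Post and 1 was higher, against 3.05% and 7.7% of all genes. In E5.5 duct 4 of 6 were higher than in E4.5-Ant and none lower, against 7.8% and 5.22% of all genes. Both counts share the E4.5-Ant libraries, so a gene low there, such as DSC1, was called in both. In E5.5 duct against E4.5-Post 2 were higher and 1 lower, while DSC1 (0.19), DSP (0.45) and PKP1 (0.41) were not called. DSC1, a desmocollin, and PKP1, a plakophilin, picked after their values were seen, had log2FC of -1.29 and -2.37 in E4.5-Ant against E4.5-Post, with mean levels of 8.67 against 21.2 CPM and 0.381 against 2.04 CPM. The others lower were PKP3 (-0.74) and DSP, desmoplakin (-0.89, and -0.50 without E4.5-Ant library 1, under the fold limit), and PKP2 was the one higher (0.74). By the naming rule, PKP2 was higher (0.84) and PKP3 lower (-0.79) in E6.5 duct than in E4.5-Post. Of 7 tested factors that repress CDH1 in mammals, E4.5-Ant had 2 higher, E5.5 duct 2 and E6.5 duct 1 relative to E4.5-Post, and none was lower. The shares over all genes were 7.7%, 14.3% and 16.5% higher and 3.05%, 6.26% and 8.78% lower in these comparisons. TWIST2 was called in each, with log2FC 1.24, 1.56 and 2.21. TWIST1 was the other, with 0.84 in E4.5-Ant and 0.63 in E5.5 duct, the latter 0.54 without E4.5-Post library 1 and 0.58 without E5.5 duct library 2, both under the fold limit. The median of the 7 genes was 0.39, 0.34 and 0.20.

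Of 11 other cadherins tested, E4.5-Ant had 2 higher and 3 lower, with 5 higher and none lower in E5.5 duct, and 1 higher and 1 lower in E6.5 duct than in E4.5-Post. In E4.5-Ant these were CDH9 and CDH19 higher and CDH3, CDH17 and CDH23 lower, and in E5.5 duct CDH9, CDH12, CDH18, CDH20 and CDH22 higher. Some levels were low: CDH9 had means of 0.725 CPM in E4.5-Ant and 0.586 in E5.5 duct against 0.25 in E4.5-Post. CDH19 had 2.81 CPM in E4.5-Ant against 1.01. In E5.5 duct CDH12 had 3.98 CPM against 1.86 and CDH22 4.04 against 2.38. The pair at E6.5 was CDH18, higher with log2FC 1.6 and a mean of 18.2 against 6.1 CPM, and CDH15, M-cadherin of muscle, lower with -1.23 and 0.689 against 1.63 CPM. Without E5.5 duct library 2 the count of those higher in E5.5 duct was 3. The skeletal muscle markers were also lower in E6.5 duct, 8 of 9 called, with a summed level of 25.8 to 29.3 CPM against 48.7 to 84.4 CPM in E4.5-Post, and their part in the CDH15 result was not tested.

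**Figure D4:**
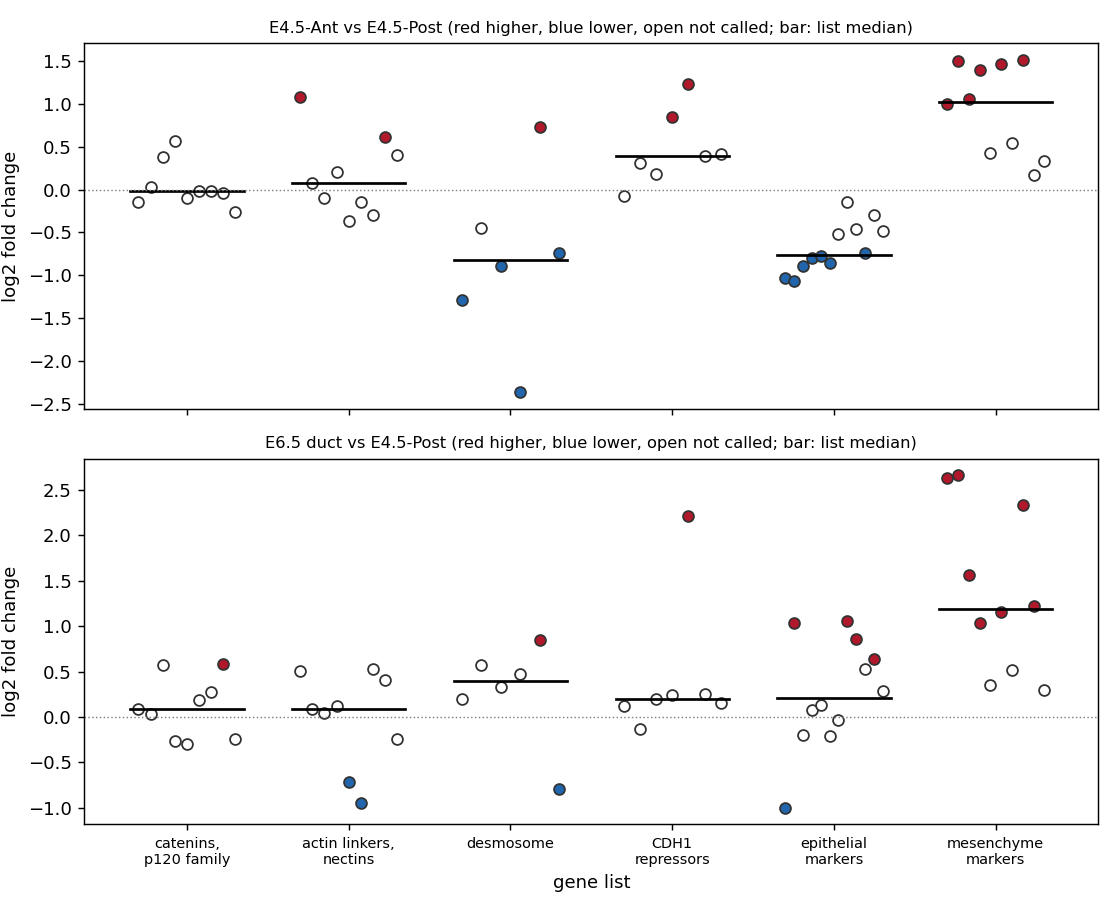
Log2 fold change of each gene tested in 6 lists, for E4.5-Ant (top) and E6.5 duct (bottom) against E4.5-Post; red is called higher, blue called lower, open not called, and the bar is the list median. Catenins have medians of -0.02 and 0.09, with single genes up to 0.57 and 0.59, mesenchyme markers lie above 0 in both (medians 1.03 and 1.19), and epithelial markers have a median of -0.76 in E4.5-Ant and 0.21 in E6.5 duct.

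Markers of the cell kinds that the dissections could hold differed between the tissues, and not all in one direction. The summed level of 13 epithelial markers was 754 to 763 CPM in E4.5-Ant, 1333 to 1373 in E4.5-Post, 979 to 1114 in E5.5 duct and 1206 to 1281 in E6.5 duct. CLDN1 alone had a mean of 541 CPM in the posterior control against 226 at E5.5 and 266 at E6.5. Its difference from E4.5-Post was nearly the whole gap in this sum at E5.5 and more than the whole gap at E6.5. By gene, 1 was higher and 1 lower in E5.5 duct and 4 were higher and 1 lower in E6.5 duct against E4.5-Post, with median log2FC of 0.04 and 0.21. Of 12 tested, 7 were lower in E4.5-Ant relative to E4.5-Post, and 10 were higher in E6.5 duct than in E4.5-Ant. CLDN4 was at 0 in every library, and in E6.5 duct KRT19 (log2FC 1.06) and CLDN3 (1.04) were higher and CLDN1 (-0.998) lower than in E4.5-Post. The summed level of 10 mesenchyme markers was 5471 to 5906 CPM in E4.5-Ant, 3077 to 3219 in E4.5-Post, 5362 to 6724 in E5.5 duct and 8181 to 8686 in E6.5 duct. Of the 10, 6 were higher in E4.5-Ant and 7 in each duct than in E4.5-Post, led at E6.5 by COL1A2 (2.66) and COL1A1 (2.63). Mean CDH11 was 549 CPM in E6.5 and 609 CPM in E5.5 duct, while every E6.5 duct library had a mesenchyme sum above every E5.5 duct library. COL1A1 (607 to 1310 CPM) and COL1A2 (1340 to 2410 CPM) were the 2 of 10 mesenchyme markers called between the ducts. The others were under the fold limit: PRRX1 (log2FC 0.47), POSTN (0.46), VIM (0.40), FN1 (0.24), COL3A1 (0.23), LUM (0.18), DCN (0.06) and PDGFRA (-0.02). The median of the 10 was 0.32. Mesonephric nephron markers, 9 genes, summed to 2547 to 2849 CPM in E4.5-Ant, 2777 to 3339 in E4.5-Post, 1758 to 1997 in E5.5 duct and 1304 to 1695 in E6.5 duct, with UMOD at no more than 3 counts in every library. Neuronal and neural crest markers, 8 genes, summed to 174 to 176 CPM in E4.5-Ant, 97.7 to 113.5 in E4.5-Post, 132 to 152 in E5.5 duct and 148.5 to 160 in E6.5 duct. E4.5-Ant, the tissue with the highest CDH10, was also highest in that sum and in the endothelial sum. E6.5 duct was above E4.5-Post in the neuronal sum, while its CDH10 log2FC against E4.5-Post was -0.01. By gene, 3 of the 8 were higher and none lower in E4.5-Ant against E4.5-Post. In each duct 2 were higher, with none lower at E5.5 and 2 lower at E6.5. Red blood cell markers, 7 genes, summed to 2218 to 2493 CPM in E4.5-Ant, 2230 to 2882 in E4.5-Post, 636 to 993 in E5.5 duct and 906 to 1042 in E6.5 duct. Against E4.5-Post 5 of the 7 were lower and 2 higher at E5.5, and 3 lower and 2 higher at E6.5. Duct epithelium markers, 4 genes, summed to 452 to 487.5 CPM in E4.5-Ant, 827 to 880.3 in E4.5-Post, 613 to 654.5 in E5.5 duct and 726 to 799 in E6.5 duct, and all 4 were lower in E4.5-Ant against E4.5-Post. As a set these genes, LHX1, PAX2, EMX2 and EPCAM, did not mark the duct alone, as their sum was highest in E4.5-Post, which lacks the ridge. Gonad markers summed to no more than 16.2 CPM and germ cell markers to no more than 1.97 CPM in the tested libraries. The part of these markers in the cadherin results was not tested.

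The genes whose level over the 11 libraries was most like that of a member were taken from 10961 protein coding genes, by Pearson correlation of log2(CPM + 1), as a description since libraries of a tissue share their tissue. For CDH2 they were SLIT1 (0.986), a secreted guidance cue, and PDE1B (0.986), a phosphodiesterase. For CDH11 they were RTN4R (0.993), the Nogo receptor, and AKAP12 (0.990), a kinase anchoring protein. For CDH10 they were PLOD2 (0.955), a collagen lysyl hydroxylase, and SLC40A1 (0.946), the iron exporter ferroportin. For CDH6 they were ASIC1 (0.977), an acid-sensing ion channel, and ECM2 (0.976).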

How the data were processed

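Tissues were pooled, libraries were made with a stranded mRNA kit, and reads were aligned with STAR through the RNAsik pipeline by the authors. Raw counts per gene were deposited by the authors without normalization; per the file headers, featureCounts 1.6.2 counted reads on the sense strand anywhere within a gene, exon or intron, with GRCg6a coordinates. The Start, End and Length columns were also used as deposited. Chromosome names were taken from RefSeq's GRCg7b table by symbol, for 22662 of 24121 IDs.

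Counts of 11 libraries were tested in one model of 4 tissues with the edgeR 4.0.16 quasi-likelihood test in R 4.3.3, after TMM scaling and filterByExpr, with FDR by Benjamini and Hochberg over 16603 genes. Depth is given in the report. Libraries are pools, so p-values measure the spread between pools. On simulated counts, the E6.5 duct against E4.5-Post test run on 16357 genes recovered 41.8% of 1.5-fold, 92.5% of 2-fold and 100% of 4-fold changes. A 1.5-fold change lies at the fold limit of a call, so that limit alone holds its recovery down. The changes were placed only on genes above a minimum mean count. Alternatives were all 12 libraries, DESeq2 1.42.0 (size factors or Wald test), voom with limma 3.58.1, total counts, other filters, protein coding genes only, each library left out, and a replicate block. Figures were drawn with matplotlib 3.10.9.

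All members are named. From each gene list, up to 2 genes per direction with the largest change among the calls of E6.5 duct against E4.5-Post are named (other list genes were picked after their values were seen), and for the 4 members with the highest F, the 2 genes of most similar pattern with a mean of at least 5 CPM. The members and lists were chosen with earlier results of these data known.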

Additional observations from a re-analysis of the deposited data

How the results depend on the processing

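With all 12 libraries, 5 members were called in E4.5-Ant against E4.5-Post in place of 3, because CDH1 and CDH6 passed; the other counts of members called, in the other comparisons and over the 4 tissues, stayed within 1.5 times under every alternative run. Signs turned only for member differences that were not called. With all 12 libraries these were CDH7 in E4.5-Ant against E4.5-Post (0.0748), CDH1 in E6.5 duct against E4.5-Post (-0.0158), as well as CDH6 in E5.5 duct (-0.482) and E6.5 duct (-0.374) against E4.5-Ant. CDH1 in E6.5 duct against E4.5-Post was -0.00120 with DESeq2 size factors, -0.00117 with the DESeq2 Wald test and -0.00232 with total counts. With total counts CDH1 and CDH6 in E5.5 duct against E4.5-Ant were -0.0230 and -0.0120. CDH10 in E6.5 duct against E4.5-Post was 0.00110 with at least 10 counts in every library and 0.00449 with protein coding genes only. Leaving out 1 library gave ranges that crossed 0 for CDH1 in E6.5 duct against E4.5-Post (-0.0405 to 0.0420) and in E5.5 duct against E4.5-Ant (-0.113 to 0.152), CDH6 in E5.5 duct against E4.5-Ant (-0.0298 to 0.0465), CDH10 in E6.5 duct against E4.5-Post (-0.180 to 0.117) and CDH13 in E6.5 duct against E4.5-Ant (-0.303 to 0.00804). Why these values moved was not tested. Library numbers were not found to pair the samples: deviations of same-numbered libraries correlated with r from -0.209 to 0.13 over 15 pairs. E4.5-Ant and E4.5-Post came from the same urogenital systems, and their same-numbered pairs had r of 0.0537 and 0.0771. With 2 E4.5-Ant libraries tested, the deviations of these mirror each other, so pairing between the E4.5 tissues could not be settled. With the replicate block CDH1 in E5.5 duct against E4.5-Ant was -0.00832 and CDH13 in that comparison was -0.58, under the fold limit; the members called were then 3 in place of 4 there. Alternatives for the gene lists were added after seeing the data. Without E5.5 duct library 2, 3 other cadherins were higher in E5.5 duct against E4.5-Post in place of 5. In simulated counts 37.3% of 1.5-fold changes, a size at the fold limit of a call, were recovered with the E4.5-Ant and posterior libraries.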
